A study of Mus musculus with 9 samples.

Results

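Nerve injury was compared with sham surgery in the prelimbic cortex of saline-treated mice. The comparison holds 6 of the 9 RNA-seq libraries of the series, 3 from sham-operated mice given saline (sham mice) and 3 from saline-treated mice after spared nerve injury, SNI (injured mice), chosen by their labels, with every expressed gene measured. The 3 remaining libraries, from mice with SNI given the R form of hydroxynorketamine (R-HNK) at 10 mg/kg, were outside the contrast. They entered the fit, where they shared in the gene filter, the scaling and the estimate of the spread between mice. In later fits that adjust for marker levels they also helped to set the adjustment. Tissue was taken on day 14 after surgery, and the design text gives 3 mice per group, so each library is taken as 1 mouse. Genotype, strain, sex, age, the route and timing of the injections, the side of the brain and behaviour are not given in the sources used here. SNI cuts some branches of the sciatic nerve and spares another, which leaves lasting pain from the hind paw.

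The prelimbic cortex belongs to the medial prefrontal cortex and is known for its part in attention, fear and the control of pain. Most of its neurons are excitatory pyramidal cells, and its inhibitory interneurons arise in the embryo from the ganglionic eminences under Dlx and Sp family transcription factors. The striatum and the olfactory bulb lie close to the medial prefrontal cortex, and their inhibitory neurons come from the same family of progenitors, so that Dlx, Sp and Pbx genes are far more active there than in cortex. When neurons fire, calcium and ERK signalling first switch on immediate early genes, then a later wave of feedback inhibitors, receptors and secreted factors. The immediate early genes are set apart here, and what follows is about the other programmes.

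Libraries differed in markers of tissue next to the cortex. Values are CPM, the count of a gene scaled to the total of its library, listed in replicate order, sham replicates 1, 2 and 3 first. Drd2, the D2 dopamine receptor of striatal neurons, measured 1.23, 44 and 41.8 CPM in the sham and 1.5, 1.72 and 1.55 CPM in the injured libraries. Adora2a, the adenosine receptor of the same cells, measured 1.88, 62.6 and 69.2 CPM in the sham and 2.57, 1.45 and 2.55 CPM in the injured libraries. Sham replicates 2 and 3 were thus far above the other 4 saline libraries, sham replicate 1 lay within or just below the injured range for both genes, and the groups overlapped. In the R-HNK libraries Drd2 measured 17.5, 1.27 and 24.6 CPM and Adora2a 23, 2.04 and 40.6 CPM, so 4 of the 9 libraries had both genes above 10 CPM, namely sham replicates 2 and 3 and the R-HNK replicates 1 and 3 (the Drd2-high libraries). Markers of the olfactory bulb had another pattern. Cdhr1, a cadherin of mitral and tufted cells, the output neurons of the bulb, measured 37.8, 24.6 and 16.4 CPM in the sham and 15.7, 3.13 and 4.76 CPM in the injured libraries. Tbx21, which also defines those cells, measured 2.48, 1.25 and 0 CPM in the sham and 0.661, 0 and 0.14 CPM in the injured libraries. Th, the enzyme of dopamine synthesis, which marks a class of bulb interneurons, measured 18.6, 10.3 and 6.62 CPM in the sham and 5.5, 3.77 and 2.78 CPM in the injured libraries. For Cdhr1 the 3 sham libraries were above all injured libraries and sham replicate 1 was the highest, a library without the striatal rise. Cortical markers were high in every library, with Slc17a7, the vesicular glutamate transporter of pyramidal cells, at 1936, 1535 and 1477 CPM in the sham and 2089, 2060.4 and 1992 CPM in the injured libraries.

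**Figure D1:**
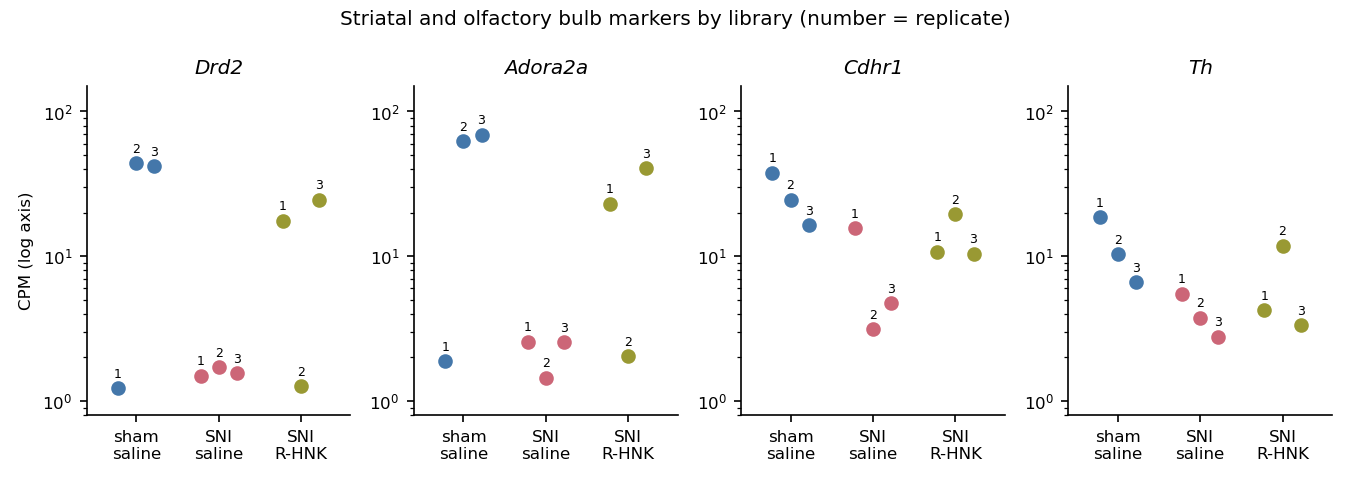
CPM on a log axis of Drd2, Adora2a, Cdhr1 and Th in each of the 9 libraries, with the replicate number above each point. Drd2 and Adora2a stand above 10 CPM in the 4 Drd2-high libraries, which are 2 sham and 2 R-HNK libraries, while Cdhr1 is highest in sham replicate 1 at 37.8 CPM.

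Of 21765 genes tested with edgeR's quasi-likelihood test, 233 passed at an adjusted p under 0.05, which is 1.07% of those tested, and 3611 had an unadjusted p under 0.05. The 112 higher genes were 0.515% and the 121 lower genes 0.556% of those tested. The list of immediate early genes, 53 tested, held 31 of the higher genes and none of the lower ones. Outside it stood 81 higher genes, with a median log2 fold change of 0.54, and 121 lower genes, with a median of -0.86, against -0.02 over all genes tested. Only 12 of the 81 rose by more than 1 on the log2 scale, while 46 of the 121 fell by more than 1. In all 233 the 3 injured values lay outside the range of the 3 sham values. Among all 21765 genes tested, passing or not, 2364 were without overlap on the higher side and 2364 on the lower side. For 75 of the 121 lower genes sham replicate 1 lay between the injured libraries and the other sham libraries. The same count over all tested genes was not made, so the 75 cannot be read as a trait of the called genes.

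The counts hung on single libraries, as fits that left out 1 library (library-out fits) showed. The 233 became 1170 without sham replicate 1, 62 without sham replicate 2 and 86 without sham replicate 3. Without injured replicates 1, 2 and 3 the counts were 134, 63 and 60, and without R-HNK replicates 1 and 2 they were 133 and 361. Adding the mean level of striatal markers as a covariate left 80 genes, of which 60 belonged to the 233. Without the 4 Drd2-high libraries 86 passed, of which 39 belonged to the 233, a fit in which sham replicate 1 is the only sham library and is assumed to vary like the injured ones. A covariate for mitral and tufted cell markers left 93 genes, of which 61 belonged to the 233, and with both covariates 1 gene passed, Gm14305, which was not one of the 233 and is named after its value was seen. In bulk tissue fewer cells of a type and less RNA per cell cannot be told apart.

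The feedback inhibitors of the ERK pathway, which neurons make after ERK has been activated, held 4 higher genes of 11 tested and no lower one (median log2 fold change 0.30). Spry4, a Sprouty protein that dampens signalling from growth factor receptors to ERK, measured 12.9, 11.9 and 12.2 CPM in the sham and 22.8, 21.2 and 24.5 CPM in the injured libraries. All injured values were above all sham values, with little spread within either group, and the log2 fold change was 0.89 ± 0.10 (SE, edgeR adjusted p = 0.000679). Spry2, its relative, measured 45.4, 47.1 and 49.4 CPM in sham and 63.7, 62.4 and 59.8 CPM in injured mice, and Dusp14, a phosphatase of MAP kinases, measured 54.5, 47.2 and 42.3 CPM in sham and 75.3, 71.8 and 70.2 CPM in injured mice. Spred2, which blocks the step from Ras to Raf, measured 132, 104 and 108 CPM in sham and 153, 162 and 149.7 CPM in injured mice. The groups did not overlap for these 3 either, with smaller log2 fold changes of 0.39, 0.59 and 0.43 (edgeR adjusted p = 0.0223, 0.0204 and 0.048). Spry4 passed in each of the 9 library-out fits. Spry2 missed the threshold in 5 of the 9 library-out fits (adjusted p up to 0.115, without injured replicate 2). Dusp14 missed the threshold in 5 of the 9 library-out fits (adjusted p up to 0.0991, without sham replicate 3), and Spred2 missed the threshold in 6 of the 9 library-out fits (adjusted p up to 0.206, without injured replicate 2). Without the 4 Drd2-high libraries none of the 4 passed, with log2 fold changes of 0.83, 0.46, 0.42 and 0.24.

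The higher gene with the smallest p outside the immediate early list was Midn (midnolin, chr10 from 80146005 to 80158368 on GRCm38), which carries short-lived nuclear proteins, immediate early proteins among them, to the proteasome. It measured 69.4, 54.5 and 58 CPM in the sham and 105, 110.2 and 112 CPM in the injured libraries. The injured libraries were closely grouped and all above the sham libraries (log2 fold change 0.85 ± 0.09 SE, edgeR adjusted p = 0.000439). Midn passed in each of the 9 library-out fits, and it also passed under the striatal covariate and again without the 4 Drd2-high libraries, where its log2 fold change was 0.66 (edgeR adjusted p = 0.0149). Stk40, a pseudokinase related to the Tribbles family, measured 34.1, 31 and 31.6 CPM in the sham and 50.1, 51.2 and 52.6 CPM in the injured libraries, again without overlap (log2 fold change 0.67 ± 0.07 SE, edgeR adjusted p = 0.000555). Stk40 passed in each of the 9 library-out fits, and its value without the Drd2-high libraries was 0.59 (adjusted p = 0.0589). Sertad1, a small regulator of transcription and the cell cycle, measured 8.97, 7.85 and 8.53 CPM in sham and 13.6, 14.6 and 14.3 CPM in injured mice, with a log2 fold change of 0.75 ± 0.11 (SE, edgeR adjusted p = 0.00565). Sertad1 passed in each of the 9 library-out fits, and without the Drd2-high libraries its adjusted p was 0.21. Irs2, an adaptor of the insulin and IGF receptors, measured 66, 65 and 69.5 CPM in sham and 97.3, 86.7 and 94.6 CPM in injured mice (log2 fold change 0.47 ± 0.08 SE, edgeR adjusted p = 0.0149). Irs2 missed the threshold in 2 of the 9 library-out fits (adjusted p up to 0.0808, without sham replicate 2).

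**Figure D2:**
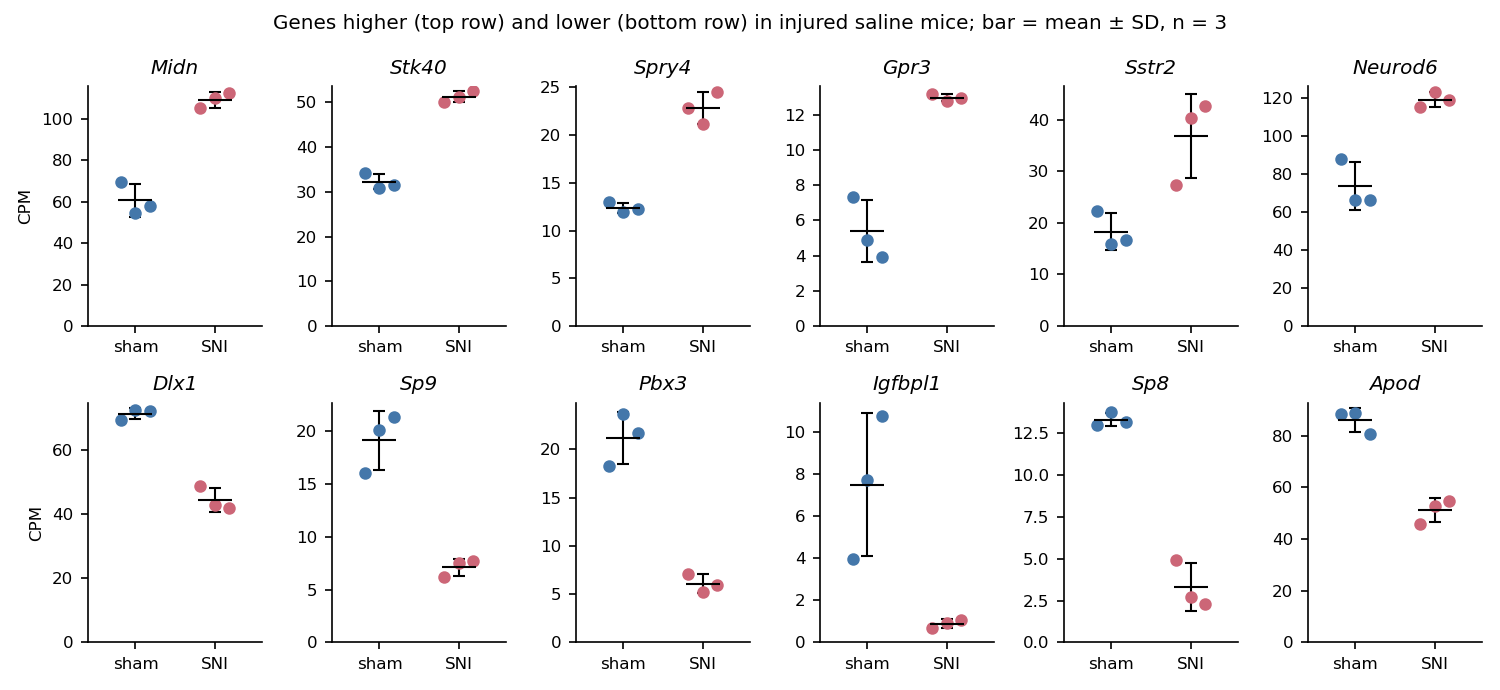
CPM in each saline library of 6 higher genes (top row) and 6 lower genes (bottom row), with the mean and SD of the 3 mice. In each of the 12 panels the 3 injured points lie wholly above or wholly below the 3 sham points. The choice of genes fixed this, since they were picked from the 233 that passed, none of which overlapped.

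One higher transcript is the host of a pair of microRNAs. 1700016P03Rik is a noncoding transcript on the plus strand of chr11 from 75172560 to 75177633 on GRCm38, with 3 exons in GENCODE, and the hairpins of Mir212 (75173388 to 75173478) and Mir132 (75173682 to 75173747) lie in its intron 1. This locus is a known target of the activity-dependent factor CREB in neurons. The host transcript was singled out after its values were seen. It measured 2.34, 1.76 and 3.31 CPM in the sham and 7.83, 7.38 and 6.34 CPM in the injured libraries, so every injured library was well above every sham library (log2 fold change 1.54 ± 0.26 SE, edgeR adjusted p = 0.0156). 1700016P03Rik missed the threshold in 4 of the 9 library-out fits (adjusted p up to 0.0841, without injured replicate 2). It passed under the striatal covariate and also without the 4 Drd2-high libraries (1.62, adjusted p = 0.0216). Reads assigned to the hairpins themselves were few and showed no difference detectable at this depth, with Mir212 at 0.735, 0.644 and 0.709 CPM in sham and 1.17, 0.733 and 0.762 CPM in injured mice (adjusted p = 0.661) and Mir132 at 0.393, 0.383 and 0.455 CPM in sham and 0.539, 0.367 and 0.435 CPM in injured mice (adjusted p = 0.922). Such reads come from the longer precursor RNA, and the mature microRNAs were not measured. The mature forms from RefSeq (GRCm38.p6) are shown because the 3′ arms share 1 seed, bases 2 to 8, in capitals, so that both would pair with the same target sites, while the 5′ arms differ.
mmu-miR-212-3p: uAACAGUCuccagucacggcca
mmu-miR-132-3p: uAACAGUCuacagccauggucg
mmu-miR-212-5p: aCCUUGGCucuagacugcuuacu
mmu-miR-132-5p: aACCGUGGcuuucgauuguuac

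The later wave of activity-regulated secreted and synaptic genes moved less. Of 22 tested, 2 rose and none fell (median log2 fold change 0.23). Gpr3, a receptor that raises cyclic AMP without a ligand, measured 7.33, 4.91 and 3.89 CPM in the sham and 13.2, 12.8 and 13 CPM in the injured libraries, with the injured libraries almost equal to each other and above all sham libraries (log2 fold change 1.27 ± 0.22 SE, edgeR adjusted p = 0.0156). Gpr3 missed the threshold in 4 of the 9 library-out fits (adjusted p up to 0.0888, without sham replicate 2). Nptx1, a neuronal pentraxin that gathers AMPA receptors at synapses, was the other (log2 fold change 0.48 ± 0.10 SE, edgeR adjusted p = 0.0455), and Nptx1 missed the threshold in 7 of the 9 library-out fits (adjusted p up to 0.183, without sham replicate 3). Bdnf, the neurotrophin, measured 30.1, 23.2 and 18.2 CPM in the sham and 38.1, 34.9 and 35.5 CPM in the injured libraries and missed the threshold although its groups did not overlap (adjusted p = 0.0684). With the mitral and tufted score as a covariate 4 of the 22 passed as higher and the median was 0.47. Gpr3 and Bdnf were among the 4 (edgeR adjusted p = 0.0242 and 0.0442), and Nptx1 was not. With the striatal covariate or both covariates none passed (medians 0.09 and 0.21). Without the 4 Drd2-high libraries the median of the list was 0.12, and neither Gpr3 nor Nptx1 passed (adjusted p = 0.0971 and 0.528).

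Several receptors were among the higher genes. Sstr2, a somatostatin receptor of pyramidal cells, measured 22.4, 16 and 16.6 CPM in the sham and 27.5, 40.5 and 42.7 CPM in the injured libraries, with injured replicate 1 nearest to the sham libraries (log2 fold change 1.01 ± 0.16 SE, edgeR adjusted p = 0.0156). Sstr2 missed the threshold in 4 of the 9 library-out fits (adjusted p up to 0.0864, without injured replicate 2). Tnfrsf25, a death receptor of the TNF family, measured 4.62, 4.16 and 3.35 CPM in the sham and 9.3, 11.5 and 9.26 CPM in the injured libraries (log2 fold change 1.31 ± 0.21 SE, edgeR adjusted p = 0.012). Adrb1, the beta-1 adrenergic receptor, measured 45.5, 39.8 and 37.2 CPM in the sham and 60.1, 61.3 and 61.4 CPM in the injured libraries, a narrow range in the injured mice and no overlap (log2 fold change 0.58 ± 0.09 SE, edgeR adjusted p = 0.00814). Adrb1 missed the threshold in 1 of the 9 library-out fits (adjusted p up to 0.0504, without sham replicate 2), and Tnfrsf25 missed the threshold in 3 of the 9 library-out fits (adjusted p up to 0.0781, without injured replicate 2). Hrh1, the histamine H1 receptor, measured 16.5, 20.9 and 15.3 CPM in sham and 32, 26.2 and 24.9 CPM in injured mice and rose (log2 fold change 0.66 ± 0.13 SE, edgeR adjusted p = 0.0284). Hrh1 missed the threshold in 5 of the 9 library-out fits (adjusted p up to 0.131, without sham replicate 3). Other genes with high fold changes were Rnf39, Arhgap25, Serinc2, Sebox, Krt80, Rasl11a and Trbc2, from 1.23 for Rnf39 to 0.98 for Trbc2. Trbc2 missed the threshold in 6 of the 9 library-out fits (adjusted p up to 0.185, without sham replicate 2). In those fits Rasl11a missed it 5 times, Rnf39 and Sebox 4 times, Arhgap25 3 times and Serinc2 1 time, and Krt80 passed in 5. Arhgap25, a Rac GTPase-activating protein known from blood cells, measured 14.8, 8.77 and 10.6 CPM in sham and 23.3, 27.5 and 27.6 CPM in injured mice, and Serinc2, a membrane protein of the serine incorporator family, measured 8.09, 5.64 and 4.64 CPM in sham and 14.1, 13 and 14.9 CPM in injured mice. Sham replicate 1 was the highest sham library for Gpr3, Rnf39, Arhgap25, Serinc2, Krt80, Sstr2, Tnfrsf25 and Trbc2. None of the genes in this paragraph passed without the 4 Drd2-high libraries, where the log2 fold changes were 0.72 for Sstr2, 1.12 for Tnfrsf25, 0.43 for Adrb1, 0.76 for Hrh1, 1.36 for Sebox and 1.21 for Rasl11a. Those of Hrh1, Sebox and Rasl11a were larger than with all libraries (0.66, 1.14 and 1.02).

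The promoters of the higher genes were searched for the cyclic AMP response element (CRE), the 8 letters TGACGTCA, to which CREB binds. Promoters are the RefSeq windows of GRCm38.p6 from 250 bases before to 50 bases after a start site, and both strands were read. Of the 81 higher genes outside the immediate early list 60 had a promoter in the table, with 89 start sites, of which 5 (5.62%) held the CRE. The share was 2.65% over the promoters of all tested genes, 1.79% over all promoters and 0.877% over those of the lower genes, where 1 of 114 held it. The 5 genes were Arl5b, Chgb, Hs3st2, Slc25a25 and Sstr2. The AP-1 site TGANTCA was in 4.49% of the promoters of higher genes and 5.51% of those of all tested genes, and the GC box GGGCGG in 71.9% and 55.8%. A match describes the letters only, and 5 promoters are too few to read as a difference. Chgb, an acidic protein of dense-core vesicles, measured 384, 319 and 315 CPM in sham and 444, 446 and 427 CPM in injured mice (log2 fold change 0.37 ± 0.08 SE, edgeR adjusted p = 0.0435), and Slc25a25, a mitochondrial carrier of ATP, measured 57.5, 55.2 and 57.9 CPM in sham and 70.2, 69.6 and 72.8 CPM in injured mice (log2 fold change 0.32 ± 0.06 SE, edgeR adjusted p = 0.0306). Arl5b, a small GTPase of the Golgi, and Hs3st2, a heparan sulfate sulfotransferase of neurons, had log2 fold changes of 0.59 and 0.54 (adjusted p = 0.0156 and 0.0313). Chgb missed the threshold in 7 of the 9 library-out fits (adjusted p up to 0.185, without injured replicate 2). Slc25a25 missed the threshold in 6 of the 9 library-out fits (adjusted p up to 0.136, without sham replicate 2), Hs3st2 missed the threshold in 6 of the 9 library-out fits (adjusted p up to 0.131, without injured replicate 3), and Arl5b missed the threshold in 3 of the 9 library-out fits (adjusted p up to 0.0777, without injured replicate 3). None of the 5 passed without the Drd2-high libraries. For these 4 genes and Sstr2 all injured libraries were above all sham libraries. The promoters of Sstr2, Chgb and Slc25a25 are shown with the CRE in capitals, to set its position beside the start site, which is at base 251 of each.
Sstr2, chr11:113619077-113619376, plus strand: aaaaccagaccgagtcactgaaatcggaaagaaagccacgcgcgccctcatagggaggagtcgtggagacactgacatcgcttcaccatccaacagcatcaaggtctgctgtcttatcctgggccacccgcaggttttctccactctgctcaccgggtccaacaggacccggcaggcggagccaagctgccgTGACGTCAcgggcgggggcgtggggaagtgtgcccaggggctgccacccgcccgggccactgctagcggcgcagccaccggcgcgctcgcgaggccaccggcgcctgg
Chgb, chr2:132781392-132781691, plus strand: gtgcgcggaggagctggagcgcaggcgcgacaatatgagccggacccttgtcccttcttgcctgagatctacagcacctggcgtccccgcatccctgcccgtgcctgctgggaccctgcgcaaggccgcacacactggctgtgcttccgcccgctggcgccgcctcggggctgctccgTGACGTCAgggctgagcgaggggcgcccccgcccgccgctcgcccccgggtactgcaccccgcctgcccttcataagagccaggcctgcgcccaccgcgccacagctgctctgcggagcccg
Slc25a25, chr2:32424017-32424316, minus strand: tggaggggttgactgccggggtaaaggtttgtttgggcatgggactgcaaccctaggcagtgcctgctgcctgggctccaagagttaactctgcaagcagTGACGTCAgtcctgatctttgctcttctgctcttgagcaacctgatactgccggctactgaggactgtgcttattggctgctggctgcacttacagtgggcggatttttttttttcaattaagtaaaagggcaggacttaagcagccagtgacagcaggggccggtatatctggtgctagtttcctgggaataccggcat

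The chaperone and metabolic lists reported here had medians from -0.0027 to 0.18 and few genes that passed. Of 33 heat shock and chaperone genes 2 rose and none fell, and 31 had a positive fold change (median 0.18). Over all 21765 genes tested 10354 had a positive and 11411 a negative fold change. Dnajb5, an HSP40 co-chaperone of neurons, measured 174, 126 and 141 CPM in the sham and 243, 240.3 and 239.5 CPM in the injured libraries, with all 3 injured libraries close to 240 CPM (log2 fold change 0.72 ± 0.11 SE, edgeR adjusted p = 0.00814). Dnajb5 passed in each of the 9 library-out fits, and without the Drd2-high libraries it had 0.48 (adjusted p = 0.0616). Dnajb1, the inducible HSP40, measured 61.7, 59.6 and 66.2 CPM in sham and 90.7, 74.4 and 82.5 CPM in injured mice (log2 fold change 0.40 ± 0.08 SE, edgeR adjusted p = 0.0315, and 0.43 without those libraries, adjusted p = 0.304), while the inducible HSP70 genes Hspa1a and Hspa1b did not pass. Of 73 nuclear genes of the respiratory chain none passed and 69 had a positive fold change (median 0.12). Of 24 glycolysis and lactate genes, which take 25 rows since Aldoa has 2, and 73 cytosolic ribosomal protein genes none passed (medians 0.14 and -0.0027). With all libraries none of 25 glucocorticoid-responsive genes and 18 circadian clock genes outside the immediate early list passed (medians 0.20 and 0.07). Among them Tsc22d3, a corticosteroid-induced leucine zipper protein, measured 40.5, 52.3 and 44 CPM in the sham and 62.9, 67.3 and 64 CPM in the injured libraries, groups that did not overlap, at an adjusted p of 0.0567. Per2, a core clock repressor, measured 53.1, 45.9 and 42.3 CPM in sham and 64.6, 61.8 and 55.3 CPM in injured mice (adjusted p = 0.0737). The glucocorticoid and clock medians were 0.21 and 0.05 without the Drd2-high libraries.

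Markers of pyramidal cells had positive fold changes, most of them short of the threshold. All 12 excitatory markers had a positive fold change, the median was 0.30, and 1 passed. This was Neurod6, a basic helix-loop-helix factor of pyramidal neurons, at 88.3, 66.5 and 66.2 CPM in the sham and 116, 123 and 119 CPM in the injured libraries (log2 fold change 0.70 ± 0.11 SE, edgeR adjusted p = 0.00901). Sham replicates 2 and 3 were the lowest for Neurod6, as they were for the sum of the 12 markers, which came to 8986, 7307 and 6936 CPM in the sham and 9354, 9090.0 and 8768 CPM in the injured libraries. The striatal marker sum stood at 707, 2702 and 2514 CPM and 737, 692 and 714 CPM in the same order. The part of the striatal markers in the result was not tested, and without the Drd2-high libraries the excitatory median was 0.08 and Neurod6 had an adjusted p of 0.126. Of 19 deep-layer markers Fezf2, the factor that specifies neurons projecting below the cortex, and Rprm, a cell cycle gene of layer 6, rose. Fezf2 measured 44, 30.7 and 36.2 CPM in sham and 59.6, 73.8 and 68.9 CPM in injured mice (log2 fold change 0.87 ± 0.14 SE, edgeR adjusted p = 0.0173) and Rprm 62.1, 50.8 and 49.9 CPM in sham and 75.8, 89.6 and 80.7 CPM in injured mice (0.60 ± 0.09 SE, edgeR adjusted p = 0.0091). Neurod6 missed the threshold in 3 of the 9 library-out fits (adjusted p up to 0.0562, without injured replicate 2). Fezf2 missed the threshold in 4 of the 9 library-out fits (adjusted p up to 0.101, without injured replicate 3), and Rprm missed the threshold in 2 of the 9 library-out fits (adjusted p up to 0.0609, without injured replicate 2). None of 14 upper-layer markers passed, and Otx1, a homeobox factor of deep-layer neurons, rose from 5.36 ± 0.939 to 9.45 ± 1.04 CPM (log2 fold change 0.82 ± 0.16 SE, edgeR adjusted p = 0.0356). Otx1 missed the threshold in 5 of the 9 library-out fits (adjusted p up to 0.161, without injured replicate 2). Without the Drd2-high libraries Fezf2, Rprm and Otx1 had 0.62, 0.41 and 0.70 and did not pass.

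The lower genes held transcription factors of neurons from the ganglionic eminences. Of 18 Dlx genes and other regulators of these neurons (homeobox, zinc finger and other factors and the noncoding Dlx6os1) 9 fell and none rose, and the list's median log2 fold change was -1.09. Pbx3, a TALE homeodomain partner of Hox and Meis proteins (chr2 from 34171457 to 34372045), measured 18.3, 23.6 and 21.7 CPM in the sham and 7.1, 5.22 and 5.97 CPM in the injured libraries. Sp9, a zinc finger factor needed by striatal D2 neurons and by interneurons (chr2 from 73271926 to 73275771), measured 16, 20.1 and 21.3 CPM in the sham and 6.17, 7.46 and 7.69 CPM in the injured libraries. Dlx1, a homeodomain factor that keeps interneurons alive (chr2 from 71528113 to 71533981), measured 69.2, 72.5 and 72.2 CPM in the sham and 48.7, 42.9 and 41.9 CPM in the injured libraries. In all 3 genes sham replicate 1 was the lowest sham library and stayed clear of the injured ones. Their log2 fold changes were -1.80 ± 0.18 (SE, edgeR adjusted p = 0.000499) for Pbx3, -1.43 ± 0.14 (SE, edgeR adjusted p = 0.000421) for Sp9 and -0.68 ± 0.08 (SE, edgeR adjusted p = 0.00215) for Dlx1, and the 3 genes passed in each of the 9 library-out fits. Without the 4 Drd2-high libraries they still passed, at -1.58, -1.16 and -0.63 (adjusted p = 0.00144, 0.011 and 0.0382). Dlx2, the neighbour of Dlx1 on chr2 (71543408 to 71546754), measured 12.9, 17.3 and 18.9 CPM in the sham and 6.19, 7.85 and 5.7 CPM in the injured libraries (log2 fold change -1.31 ± 0.16 SE, edgeR adjusted p = 0.00218). Dlx2 passed in each of the 9 library-out fits, and without the Drd2-high libraries its adjusted p was 0.0821.

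The other members of the list that fell did not pass in all 9 library-out fits. With the striatal and the mitral and tufted scores both as covariates, no member of the list passed. Sp8, a close relative of Sp9, measured 13, 13.7 and 13.2 CPM in the sham and 4.94, 2.7 and 2.27 CPM in the injured libraries, with the 3 sham libraries alike and injured replicate 1 the highest of the injured ones (log2 fold change -2.01 ± 0.32 SE, edgeR adjusted p = 0.0202). Sp8 missed the threshold in 4 of the 9 library-out fits (adjusted p up to 0.119, without injured replicate 2), and without the Drd2-high libraries it had -1.97 (adjusted p = 0.117). Dlx6, Dlx5 and Meis2 went from 7.46 ± 2.15 to 3.47 ± 0.577 CPM, 9.72 ± 1.33 to 5.48 ± 0.71 CPM and 216 ± 29.6 to 146 ± 17 CPM, as mean ± SD (n = 3). Their log2 fold changes were -1.11, -0.83 and -0.56 (edgeR adjusted p = 0.0377, 0.0478 and 0.0476). Without the Drd2-high libraries these became -0.52, -0.63 and -0.33 and did not pass. Dlx6, Dlx5 and Meis2 missed the threshold in 6, 7 and 6 of the 9 library-out fits (edgeR adjusted p up to 0.161, 0.189 and 0.203). The long noncoding Dlx6os1, transcribed beside Dlx6, was the remaining member that fell. The number of members that passed ran from 4 to 11 over the 9 library-out fits. The summed level of the 18 genes was 612, 715 and 710.0 CPM in the sham and 488, 461 and 476 CPM in the injured libraries, without overlap, and sham replicate 1 was the lowest sham library. Without the Drd2-high libraries the median of the list was -0.63. Dlx, Sp and Pbx genes are expressed in striatum and olfactory bulb too, so the marker levels of both tissues stand beside this result. None of 22 striatal markers passed (median -2.23 with all libraries and -0.01 without the 4), and none of 9 mitral and tufted cell markers passed (median -1.74 and -1.78). The part of olfactory bulb tissue in the fall of the Dlx, Sp and Pbx genes was not tested beyond the covariate fit: with the mitral and tufted score as a covariate Pbx3, Sp9 and Dlx2 passed, and Dlx1 and Sp8 did not.

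Of 18 olfactory bulb interneuron markers 5 fell and all 18 had a negative fold change (median -1.34, and -1.21 without the Drd2-high libraries). Sp8, already counted with the Dlx genes above, was 1 of the 5. Scgn, the calcium sensor secretagogin of bulb interneurons, measured 3.95, 3.17 and 2.11 CPM in the sham and 0.487, 0.217 and 0.186 CPM in the injured libraries. Its highest injured value was far below its lowest sham value (log2 fold change -3.37 ± 0.58 SE, edgeR adjusted p = 0.0204), and it passed without the Drd2-high libraries (-3.73, adjusted p = 0.00243). Scgn missed the threshold in 3 of the 9 library-out fits (adjusted p up to 0.144, without injured replicate 2). Kctd12, an auxiliary subunit of GABA-B receptors, measured 107, 118 and 114 CPM in the sham and 76.5, 59.3 and 68.1 CPM in the injured libraries (log2 fold change -0.73 ± 0.09 SE, edgeR adjusted p = 0.00182), and Kctd12 passed in each of the 9 library-out fits. Pax6, a factor of neural progenitors and of dopaminergic bulb neurons, measured 14.5, 15.2 and 16.3 CPM in the sham and 8.59, 7.36 and 7.01 CPM in the injured libraries, and its log2 fold change was -1.005 ± 0.12 (SE, edgeR adjusted p = 0.00218). Gpr101, an orphan receptor, measured 0.906, 2.23 and 3.11 CPM in sham and 0.226, 0.583 and 0.482 CPM in injured mice (log2 fold change -2.26 ± 0.48 SE, edgeR adjusted p = 0.0455). Gpr101 missed the threshold in 7 of the 9 library-out fits (adjusted p up to 0.187, without sham replicate 3), and it had -1.06 without the Drd2-high libraries (adjusted p = 0.742, and 0.523 with the striatal covariate). Without those libraries Kctd12 and Pax6 had -0.65 and -0.92 and did not pass (adjusted p = 0.0589 and 0.0617). The per-library mean of the bulb interneuron list, in log2 CPM relative to all 9 libraries, was 0.97, 0.69 and 0.30 in the sham and -0.27, -0.83 and -0.93 in the injured libraries. The mitral and tufted list gave 1.31, 1.18 and -0.01 and 0.40, -1.36 and -1.07, so the lists of both bulb cell classes were highest in sham replicate 1. The part of bulb tissue in these falls was not tested, and with the mitral and tufted score as a covariate Kctd12, Pax6 and Gpr101 passed and Scgn did not.

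Among 18 genes of immature neurons and neuroblasts 5 fell, none rose and the median was -0.73. Igfbpl1, an IGF-binding-like protein of newborn neurons (chr4 from 45809507 to 45826827), measured 3.98, 7.73 and 10.8 CPM in the sham and 0.696, 0.916 and 1.09 CPM in the injured libraries. Sham replicate 1 was the lowest sham library and still several times above the highest injured library (log2 fold change -3.05 ± 0.37 SE, edgeR adjusted p = 0.00302). Igfbpl1 passed in each of the 9 library-out fits, and it passed without the Drd2-high libraries (-2.13, adjusted p = 0.0149). Dcx, the microtubule protein doublecortin of migrating neurons, measured 67.3, 62.4 and 62.7 CPM in the sham and 37.3, 36.5 and 41.3 CPM in the injured libraries, with sham replicate 1 the highest of all (log2 fold change -0.74 ± 0.12 SE, edgeR adjusted p = 0.0151, and -0.81 without the Drd2-high libraries, adjusted p = 0.00589). Sox4, a factor of young neurons, measured 48.6, 50.3 and 60.4 CPM in the sham and 34.7, 30.6 and 31.7 CPM in the injured libraries (log2 fold change -0.71 ± 0.10 SE, edgeR adjusted p = 0.00426). Sox4 passed in each of the 9 library-out fits, and without the Drd2-high libraries it had -0.58 (adjusted p = 0.066). Dcx missed the threshold in 4 of the 9 library-out fits (adjusted p up to 0.0996, without injured replicate 2). Cd24a, a surface protein of neuroblasts, was the remaining member besides Dlx2 that fell (11 ± 2.74 to 5.19 ± 0.633 CPM, adjusted p = 0.042). Cd24a missed the threshold in 5 of the 9 library-out fits (edgeR adjusted p up to 0.197, without injured replicate 2). Of 20 genes of proliferating cells and progenitors Pax6 and Cdca7, a MYC target of dividing cells, fell, with Cdca7 at 4.62, 6.74 and 10.4 CPM in the sham and 1.67, 2.07 and 1.76 CPM in the injured libraries (log2 fold change -1.98 ± 0.27 SE, edgeR adjusted p = 0.00426). Cdca7 passed in each of the 9 library-out fits, and without the Drd2-high libraries it had -1.33 (adjusted p = 0.0939). Mki67, the marker that defines dividing cells, measured 2.94, 6.15 and 10.4 CPM in sham and 1.76, 4.43 and 4.37 CPM in injured mice, groups that overlapped (adjusted p = 0.487), and it was lowest in sham replicate 1 among the sham libraries.

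Zic1 and Zic2, zinc finger factors of septal neurons, bulb granule cells and the meninges, both fell. Zic1 measured 27.7, 34.6 and 55.7 CPM in the sham and 12, 9.96 and 8.0 CPM in the injured libraries (log2 fold change -1.98 ± 0.31 SE, edgeR adjusted p = 0.0362) and Zic2 11.4, 12.5 and 21.2 CPM in sham and 7.95, 7.68 and 7.65 CPM in injured mice (-0.95 ± 0.20 SE, edgeR adjusted p = 0.0477). Sham replicate 3 was the highest library for both. Zic1 missed the threshold in 6 of the 9 library-out fits and Zic2 in 7 (edgeR adjusted p up to 0.168 and 0.198, both without injured replicate 2). All 9 genes of the septal and Zic list had negative fold changes, and the median went from -0.95 to -0.22 without the Drd2-high libraries, where Zic1 passed (-1.47, adjusted p = 0.0030) and Zic2 did not.

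The promoters of the lower genes outside the immediate early list, 114 start sites of 83 of the 121 genes, held the homeodomain core TAATTA in 7.89%, against 3.12% over the promoters of all tested genes and 5.29% over all promoters. The CArG box was in 2.63% of them and 1.43% of the tested, and the E-box CACGTG in 10.5% and 9.07%. TAATTA was in 9 of the 114 start sites, from 7 genes, which are too few to read as a difference. Here too a match describes the letters only. One of the Sp8 start sites holds TAATTA and is shown with it in capitals, since Sp8 is both a lower gene and a factor of the Dlx group.
Sp8, chr12:118847309-118847608, plus strand: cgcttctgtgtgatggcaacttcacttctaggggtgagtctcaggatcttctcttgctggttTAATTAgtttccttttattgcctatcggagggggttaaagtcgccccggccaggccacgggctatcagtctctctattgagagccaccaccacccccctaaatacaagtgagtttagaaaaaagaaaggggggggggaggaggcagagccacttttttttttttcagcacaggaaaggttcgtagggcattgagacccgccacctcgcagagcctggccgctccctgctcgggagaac

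**Figure D3:**
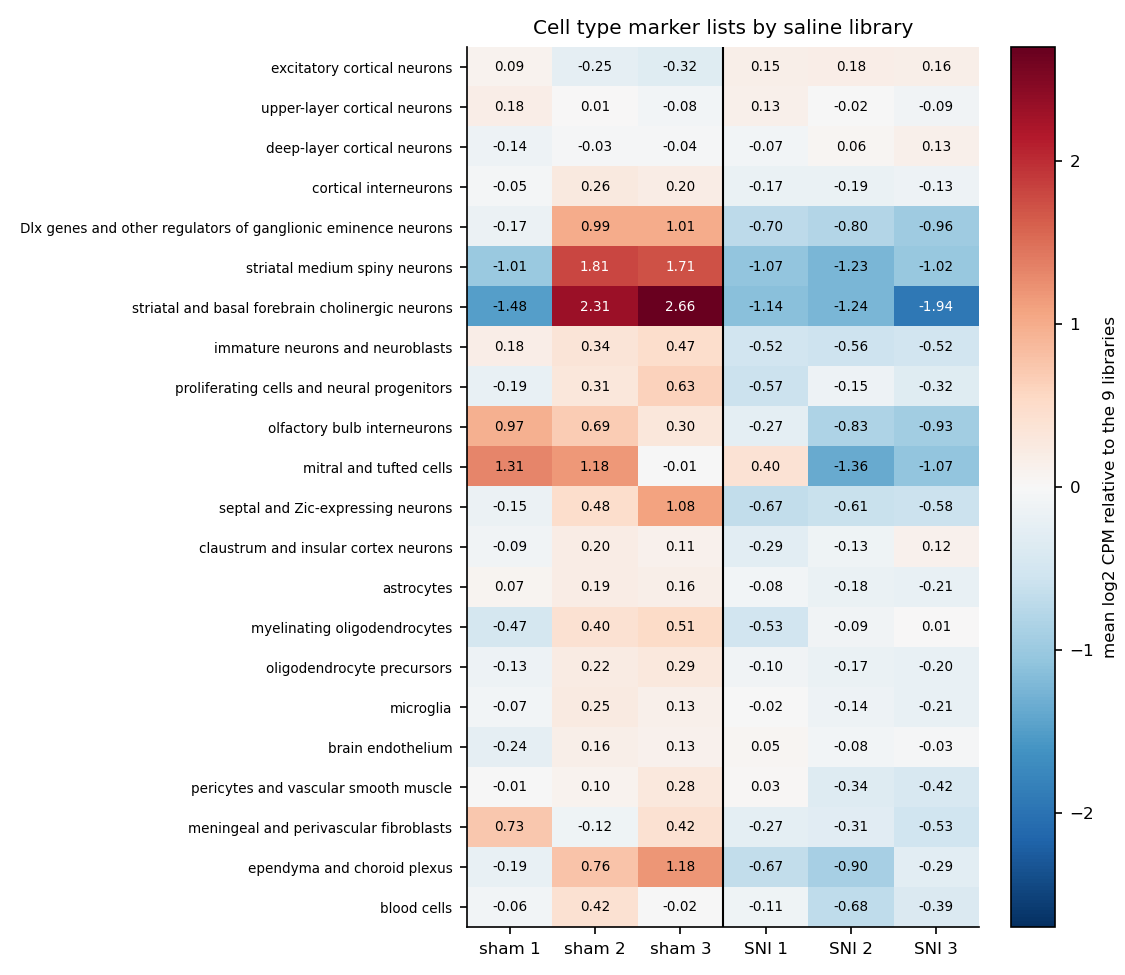
Mean log2 CPM of each cell type marker list in the 6 saline libraries, relative to the mean of all 9 libraries, with the value printed in each cell. The striatal list is at 1.81 and 1.71 in sham replicates 2 and 3 and between -1.23 and -1.01 in the other saline libraries, and the mitral and tufted list is highest in sham replicate 1 at 1.31.

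Genes of connective tissue leaned downward, while 11411 of all 21765 genes tested had a negative fold change. All 20 meningeal and perivascular fibroblast genes had negative fold changes, 3 fell, and the median was -0.85, and -1.08 without the 4 Drd2-high libraries. Igf2, a growth factor made in adult brain mainly by meninges and choroid plexus, measured 23.3, 17.7 and 27.8 CPM in the sham and 11.7, 12 and 10.4 CPM in the injured libraries (log2 fold change -1.01 ± 0.16 SE, edgeR adjusted p = 0.00991). Fmod, the collagen-binding proteoglycan fibromodulin, measured 6.58, 5.73 and 6.15 CPM in the sham and 3.29, 2.95 and 3.33 CPM in the injured libraries (log2 fold change -0.95 ± 0.18 SE, edgeR adjusted p = 0.0305), and Col1a1, the main chain of type I collagen, measured 8.26, 5.54 and 7.35 CPM in the sham and 3.88, 3.8 and 2.75 CPM in the injured libraries (log2 fold change -1.02 ± 0.21 SE, edgeR adjusted p = 0.038). The groups did not overlap for any of the 3, and only Igf2 passed without the Drd2-high libraries (adjusted p = 0.00936). Igf2 missed the threshold in 2 of the 9 library-out fits (adjusted p up to 0.0728, without injured replicate 3). Fmod missed the threshold in 6 of the 9 library-out fits (adjusted p up to 0.16, without injured replicate 2), and Col1a1 missed the threshold in 7 of the 9 library-out fits (adjusted p up to 0.142, without sham replicate 3). Dcn, the defining proteoglycan decorin, measured 3.28, 2.18 and 3.58 CPM in sham and 1.74, 1.43 and 1.15 CPM in injured mice and did not pass (adjusted p = 0.112). The summed level of the list was 159.7, 109.7 and 133 CPM in the sham and 91, 87.9 and 84.8 CPM in the injured libraries. The part of meninges left on the tissue in this result was not tested. Ttr, the defining choroid plexus gene, was under 0.5 CPM in all 6 saline libraries, at 0.308, 0.157 and 0.236 CPM in sham and 0, 0.417 and 0 CPM in injured mice.

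Apod, the lipid carrier apolipoprotein D of glia and perivascular cells (chr16 from 31296192 to 31314808), measured 88.6, 88.9 and 80.8 CPM in the sham and 45.9, 52.8 and 54.9 CPM in the injured libraries. The injured libraries were all below the sham libraries (log2 fold change -0.75 ± 0.10 SE, edgeR adjusted p = 0.00332). Apod passed in each of the 9 library-out fits, and without the Drd2-high libraries it was -0.78 (adjusted p = 0.00936). Of 21 astrocyte markers Slc4a4, a sodium bicarbonate cotransporter, and Slc6a11, the GABA transporter GAT3, fell (136 ± 16.9 to 91.3 ± 7.96 CPM and 183 ± 9.5 to 131 ± 19.7 CPM, mean ± SD, n = 3). Their log2 fold changes were -0.57 and -0.48 (edgeR adjusted p = 0.0307 and 0.0313), and neither passed without the Drd2-high libraries, where they had -0.34 and -0.50 (adjusted p = 0.418 and 0.249). Slc4a4 and Slc6a11 each missed the threshold in 5 of the 9 library-out fits (edgeR adjusted p up to 0.166 and 0.171, both without injured replicate 2). None of 18 myelin genes passed, and their median changed sign, from -0.41 with all libraries to 0.33 without the 4. None of 14 oligodendrocyte precursor, 19 endothelial, 14 pericyte and muscle and 10 blood cell genes passed. Of 22 ependymal and choroid plexus genes Hydin, a protein of motile cilia, fell (1.68, 3.81 and 3.77 CPM in sham and 1.06, 0.80 and 1.09 CPM in injured mice, adjusted p = 0.0458), and the median went from -0.79 to -0.03 without the Drd2-high libraries. Hydin missed the threshold in 6 of the 9 library-out fits (edgeR adjusted p up to 0.203, without injured replicate 2).

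No immune gene of the lists passed as higher. None of 22 cytokine, chemokine and innate immune genes and none of 26 interferon-stimulated and antigen presentation genes passed (medians -0.13 and -0.21). Of 19 microglial genes Sall1, a factor that keeps microglial identity and is also active in neural progenitors, fell, at 29.6, 36.8 and 33.9 CPM in the sham and 20.8, 19.3 and 17.7 CPM in the injured libraries (log2 fold change -0.79 ± 0.11 SE, edgeR adjusted p = 0.00426). Sall1 passed in each of the 9 library-out fits, and without the Drd2-high libraries it had -0.61 (adjusted p = 0.106). Cx3cr1, the fractalkine receptor of microglia, measured 48.9, 56.9 and 57.6 CPM in sham and 44.8, 44.1 and 42.3 CPM in injured mice (adjusted p = 0.13), and C1qa, a complement subunit made by microglia, did not pass. C4b alone of 20 complement genes passed, at 15.3, 17.9 and 18.8 CPM in the sham and 5.79, 6.91 and 5.13 CPM in the injured libraries (log2 fold change -1.55 ± 0.29 SE, edgeR adjusted p = 0.048), and it passed without the Drd2-high libraries (-1.36, adjusted p = 0.00826). C4b missed the threshold in 6 of the 9 library-out fits (adjusted p up to 0.173, without sham replicate 3). C4b and its near-identical neighbour C4a share reads, so its value is uncertain.

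Receptor and channel genes mostly did not pass. Of 27 AMPA receptor genes and partners 1 fell, Cacng5, an auxiliary subunit, at 24.5, 24 and 21.6 CPM in the sham and 10.5, 6.3 and 8.73 CPM in the injured libraries (log2 fold change -1.46 ± 0.21 SE, edgeR adjusted p = 0.00991). Cacng5 missed the threshold in 2 of the 9 library-out fits (adjusted p up to 0.0777, without injured replicate 3). It passed without the Drd2-high libraries (-1.52, adjusted p = 0.0121). The list's median was 0.0034. Of 23 NMDA, kainate and metabotropic glutamate receptors Grm4, a presynaptic receptor, fell (42.8, 52.4 and 42.6 CPM in sham and 34.7, 30.2 and 31.7 CPM in injured mice, adjusted p = 0.0296), and of 24 GABA genes only Slc6a11 passed. Of 47 potassium and HCN channel genes 1 rose, Kcnmb4, the neuronal beta subunit of BK channels, at 84.8, 79.6 and 70.8 CPM in sham and 110.2, 108 and 99.1 CPM in injured mice (log2 fold change 0.43 ± 0.08 SE, edgeR adjusted p = 0.0202). Of 24 sodium and calcium channel genes 1 fell, the L-type channel Cacna1c, at 127, 125 and 123 CPM in sham and 109, 85.7 and 91.8 CPM in injured mice (log2 fold change -0.39 ± 0.08 SE, edgeR adjusted p = 0.0476). Grm4 missed the threshold in 5 of the 9 library-out fits (adjusted p up to 0.166, without injured replicate 2). Kcnmb4 missed the threshold in 4 of the 9 library-out fits (adjusted p up to 0.115, without injured replicate 2), and Cacna1c missed the threshold in 6 of the 9 library-out fits (adjusted p up to 0.206, without injured replicate 2). Without the Drd2-high libraries Grm4, Kcnmb4 and Cacna1c had -0.41, 0.32 and -0.40 and did not pass (adjusted p = 0.329, 0.419 and 0.363). Of 36 neuropeptide genes and receptors 1 rose, Sstr2, and 1 fell, Tacr1, the receptor for substance P, at 4.34, 8.95 and 7.48 CPM in sham and 1.98, 2.4 and 2.81 CPM in injured mice (log2 fold change -1.53 ± 0.27 SE, edgeR adjusted p = 0.0204). Tacr1 is also made by striatal interneurons, and it had -0.85 without the Drd2-high libraries (adjusted p = 0.505). Tacr1 missed the threshold in 5 of the 9 library-out fits (edgeR adjusted p up to 0.115, without injured replicate 2). Of 36 monoamine, acetylcholine and cannabinoid receptors Adrb1 and Hrh1 rose and none fell. None of 26 postsynaptic density, 36 synaptic vesicle and 28 BDNF and mTOR genes passed (medians 0.01, 0.18 and 0.01).

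Cell adhesion and guidance genes leaned downward, with 36 of 48 negative, against 11411 of all 21765 genes tested, and 2 that fell. Pcdh20, a non-clustered protocadherin, measured 19.1, 20.8 and 18.2 CPM in the sham and 11.3, 9.28 and 11.1 CPM in the injured libraries (log2 fold change -0.87 ± 0.13 SE, edgeR adjusted p = 0.00706), and Pcdh20 passed in each of the 9 library-out fits. Sema6a, a transmembrane semaphorin, measured 40.7, 42.2 and 45.3 CPM in sham and 34.1, 29.99 and 29.3 CPM in injured mice (log2 fold change -0.46 ± 0.09 SE, edgeR adjusted p = 0.0268), and Sema6a missed the threshold in 4 of the 9 library-out fits (adjusted p up to 0.148, without injured replicate 2). Without the Drd2-high libraries Pcdh20 had -0.85 and Sema6a -0.38, and neither passed (adjusted p = 0.0589 and 0.416). Of 20 cortical interneuron markers Reln, the secreted glycoprotein reelin, and Adarb2, an RNA-binding protein of the same superficial interneurons, fell, at 108, 106 and 95.2 CPM in sham and 82.3, 65.1 and 71 CPM in injured mice and 23.9, 25.5 and 20.8 CPM in sham and 16.1, 14.3 and 15.7 CPM in injured mice. Neither passed without the Drd2-high libraries (adjusted p = 0.0999 and 0.111). Reln and Adarb2 missed the threshold in 3 and 4 of the 9 library-out fits (edgeR adjusted p up to 0.144 and 0.166, both without injured replicate 2). Pvalb and Sst, which mark the main interneuron classes of cortex, did not pass (adjusted p = 0.172 and 0.375). Bmp6, a bone morphogenetic protein, and Pipox, a peroxisomal oxidase, were among the genes that fell most, with Bmp6 at 6.32, 7.5 and 5.89 CPM in the sham and 2.64, 1.57 and 2.11 CPM in the injured libraries (log2 fold change -1.64 ± 0.22 SE, edgeR adjusted p = 0.00376) and Pipox at 2.0, 2.86 and 2.31 CPM in the sham and 0.504, 0.633 and 0.513 CPM in the injured libraries (-2.11 ± 0.28 SE, edgeR adjusted p = 0.00376). Both passed in each of the 9 library-out fits, and neither passed without the Drd2-high libraries, where they had -1.58 and -1.85 (adjusted p = 0.065 and 0.135).

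**Figure D4:**
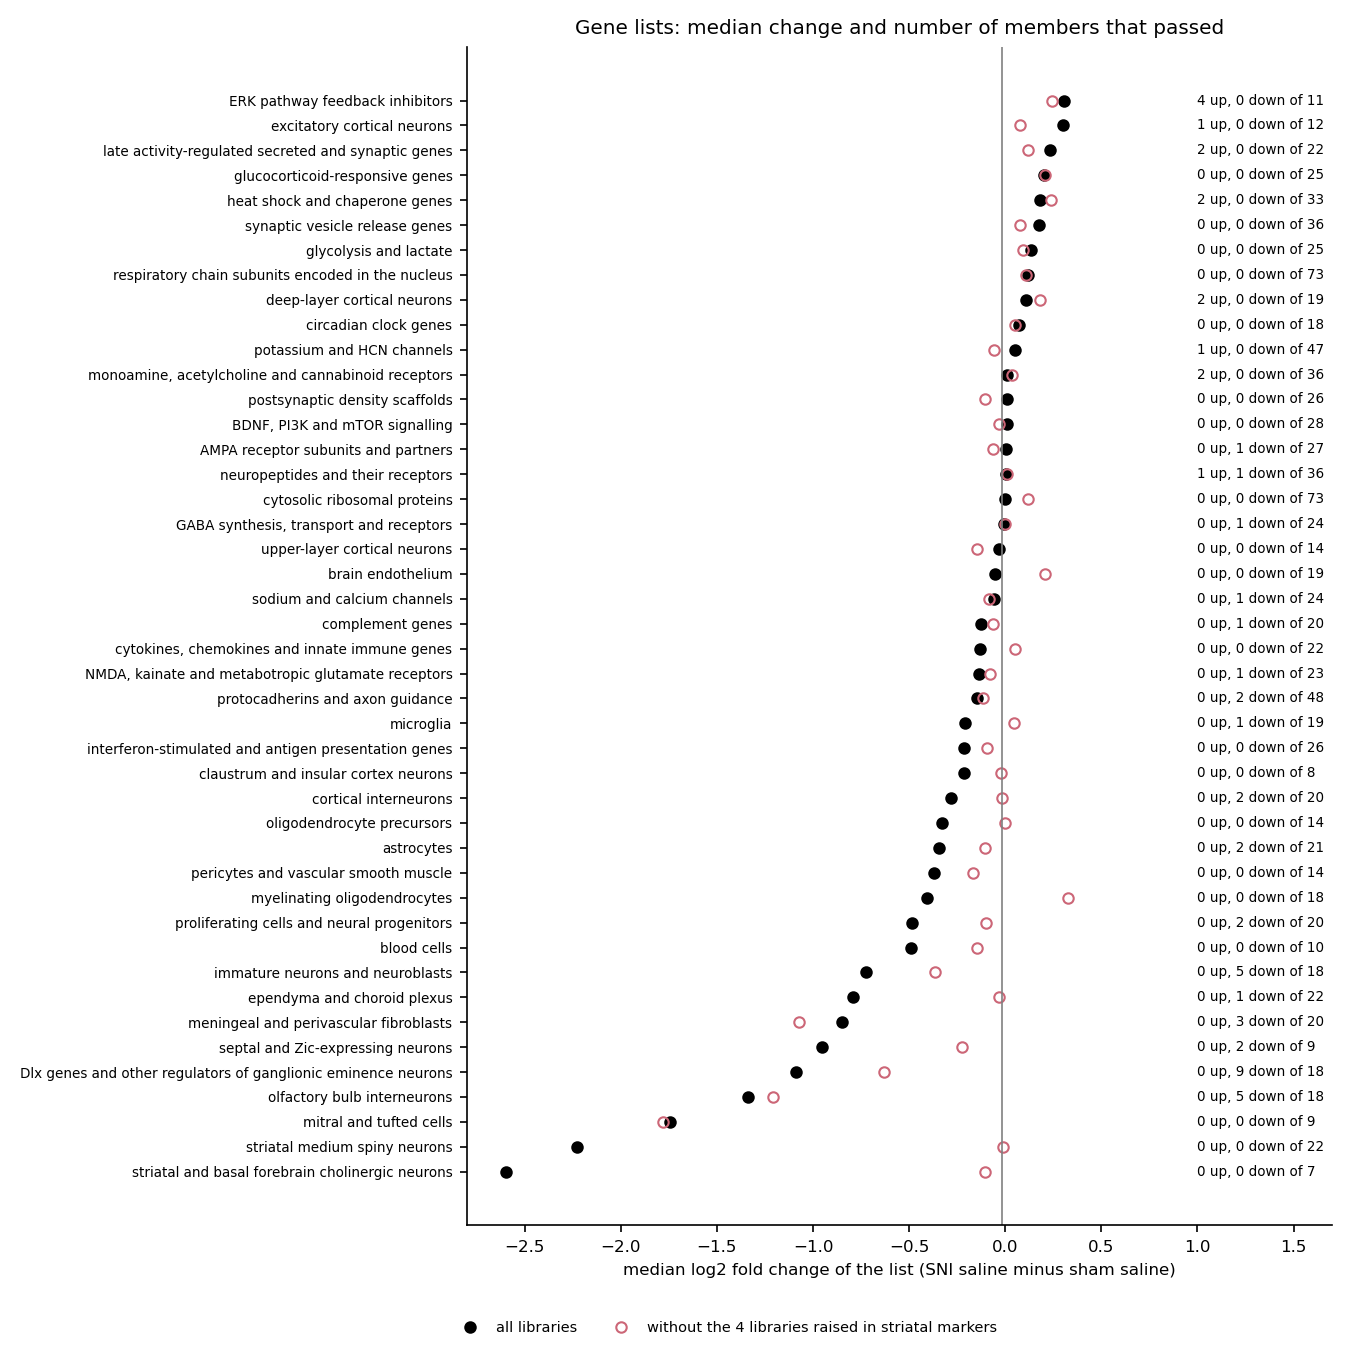
Median log2 fold change (injured minus sham) of the gene lists reported here with all libraries (filled) and without the 4 Drd2-high libraries (open), with the number of members that passed in each direction with all libraries. The grey line is the median of all tested genes, -0.02. The striatal list moves from -2.23 to -0.01, while the bulb interneuron list goes from -1.34 to -1.21 and the fibroblast list from -0.85 to -1.08.

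The genes that passed under every one of 12 settings, the fit with all libraries, the 9 fits that left out 1 library, the striatal covariate and the fit without the Drd2-high libraries, were 22. Of these 15 were immediate early genes and 7 were not. The 7 were Midn and Gm6344, higher, and Pbx3, Igfbpl1, Sp9, Dlx1 and Apod, lower. Gm6344 is a pseudogene on chr13, at 0, 0.0174 and 0 CPM in the sham and 0.974, 0.317 and 0.699 CPM in the injured libraries. Its sham libraries are at or near 0, so no fold is given, and its reads may belong to the gene it was copied from. Outside the immediate early list 24 genes passed in all 9 fits, 6 higher (Midn, Gm6344, Spry4, Stk40, Dnajb5 and Sertad1) and 18 lower. Under the striatal covariate, where 0.368% of all genes tested passed, 37 of the 202 did, 10 higher and 27 lower. Without the Drd2-high libraries, where 0.368% of all genes tested passed, 18 did, 3 higher (Midn, Gm6344 and 1700016P03Rik) and 15 lower (Pbx3, Sp9, Dlx1, Igfbpl1, Apod, Scgn, Dcx, Zic1, Igf2, C4b, Cacng5, Map3k1, Ptpro, Ankfn1 and Isoc1). In that fit, with fewer libraries, the median log2 fold change of the higher genes was 0.42 and that of the lower genes -0.65, against 0.54 and -0.86 with all libraries. With the mitral and tufted score as a covariate Midn, Gm6344, Pbx3, Igfbpl1, Sp9 and Apod passed and Dlx1 did not. With both scores as covariates none of the 233 passed, immediate early genes included, while the median of the immediate early list was 0.83 against 0.91. The medians of the other higher and lower genes were 0.42 and -0.64 there. Sp9, Igfbpl1 and Apod had -1.56, -2.84 and -0.89 with both covariates, and Pbx3, Dlx1 and Midn had -1.36, -0.51 and 0.57.

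**Figure D5:**
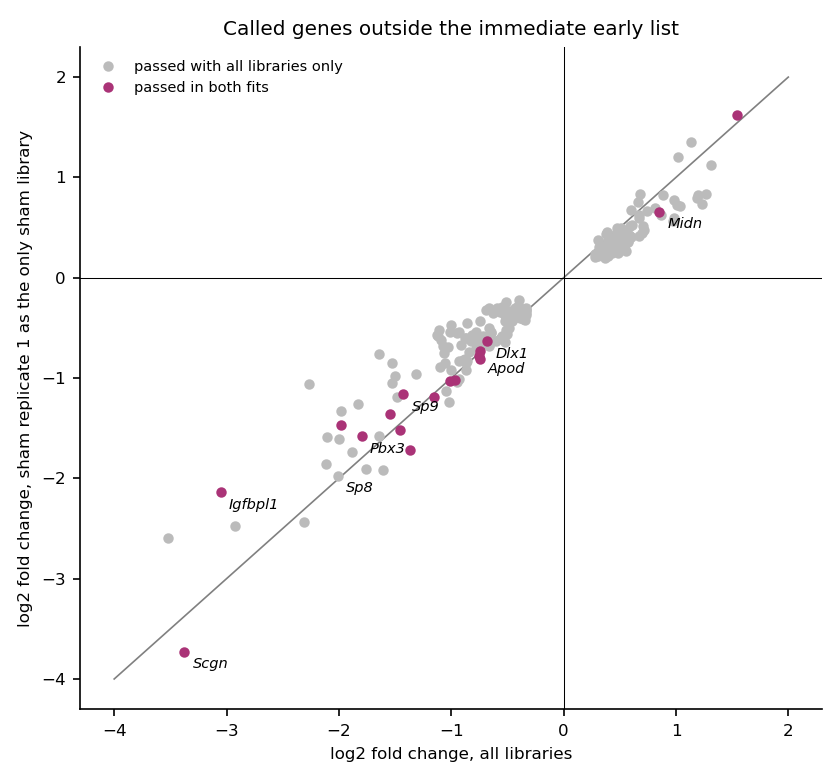
Log2 fold change of 198 called genes outside the immediate early list with all libraries (x axis) and without the 4 Drd2-high libraries (y axis), with the line of equality. The 4 called genes with a fitted value beyond 5, Cabp5, Gm6344, Gm26760 and Krt25, are near or at 0 CPM in a group and are not drawn. Of the 198, 17 passed in both fits (Gm6344 is the other that did), and Pbx3, Sp9, Dlx1 and Apod lie near the line.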

How the data were processed

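The authors' deposited table gives expected counts, that is estimated reads assigned to each of 55335 gene rows, as integers with no scaling. The submitters' processing notes name HISAT2 2.0.5, featureCounts 1.5.0-p3 and mm10, while the name of the table gives StringTie. Strand and pair handling are not given in the sources used here, so reads of overlapping or antisense genes cannot be told apart. Totals ran from 53624337 to 73586375 counts.

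Genes kept by filterByExpr (21765, with 99.96% of the counts) were scaled by TMM, and edgeR 4.0.16 in R 4.3.3 fitted its robust quasi-likelihood model to the 9 libraries with a mean for each group, at a common biological coefficient of variation of 0.203. The contrast was injured saline minus sham saline, with Benjamini-Hochberg adjustment over all tested genes and a threshold of 0.05. CPM use the TMM-scaled totals. With 3 against 3 an exact permutation test of a single gene cannot go below 0.1. Whether the mice came from separate litters or days is unknown, so p-values measure the spread between these mice only.

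The comparison, the immediate early list and the 45 other lists were chosen with earlier results of these data known, so lists are described without a test. Named genes are, outside the immediate early list, up to 10 per direction by fold change (called, mean log2 CPM 0 or above, full symbol, groups apart), up to 10 per direction by p among genes called in every library-out fit and in both striatal fits, the leading and defining members of each list, and Drd2 and Adora2a. Other called genes were named after their values were seen. A few genes that the rule names are not reported here. The alternatives used RLE and upper quartile scaling, other filters, DESeq2 1.42.0, limma-voom (limma 3.58.1), a replicate block, fewer libraries and marker covariates, the mitral and tufted covariate being added after seeing the data. The scripts were tested on simulated counts, with changes set in genes outside the lists at a mean log2 CPM above 0. They recovered 48.3% of 1.5-fold, 76.1% of 2-fold and 94.9% of 4-fold changes, and 7.01% of the calls were false. A gene that did not pass may thus still differ. Promoter and microRNA sequences come from RefSeq (GRCm38.p6) and exons from GENCODE M21.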

Additional observations from a re-analysis of the deposited data

How the results depend on the processing

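The count of 233 (112 higher, 121 lower) was 232 (115, 117) with RLE scaling, 220 (89, 131) with upper quartile scaling, 301 (128, 173) when genes under a mean log2 CPM of 0 were dropped and 193 (84, 109) with the 6 saline libraries alone. It was 370 (170, 200) with no filter, 1185 (531, 654) with DESeq2 and 1135 (573, 562) with limma-voom, of which the last 2 held 230 and 232 of the 233, and the cause was not tested. Over the 9 fits leaving out 1 library it ran from 60 to 1170, with 32 to 560 higher and 26 to 610 lower. It was 80 (41, 39) with the striatal covariate, 86 (46, 40) without the Drd2-high libraries, 93 (45, 48) with the mitral and tufted covariate and 1 (1, 0) with both covariates. Deviations of same-numbered sham and injured libraries from their group means had correlations of 0.02, -0.07 and -0.01. Those of differently numbered libraries ran from -0.06 to 0.07. Such values cannot show whether mice of the same number shared a litter or day. With a replicate block 162 genes passed (84, 78), 142 of them among the 233. Of 71 called genes with printed values, 47 missed the threshold without sham replicate 2, 38 without sham replicate 3, 29, 45 and 46 without injured replicates 1, 2 and 3 in turn. The number was 21 without R-HNK replicate 1, 9 without R-HNK replicate 3, and none without sham replicate 1 or R-HNK replicate 2. No scaling moved the median of all genes by over 0.1.

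Changes of sign among the genes named touched ones that had not passed. Drd2 had a log2 fold change of 0.70 with the striatal covariate, 0.37 without the Drd2-high libraries and 0.35 with both covariates, and Adora2a had 0.53, 0.23 and 0.53. Tbx21 had 3.02 with the mitral and tufted covariate and 1.72 with both. Mki67 had 0.35 with the striatal covariate and 0.27 without the Drd2-high libraries. Mir132 ran from -0.014 to 0.25 over the fits leaving out 1 library. Genes with few counts, such as Gm6344 and Mir132, are limited by counting error.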
